A study of Bos taurus with 9 samples.

Results

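Toll-like receptors (TLRs) and the proteins that load, transport and couple them were described here in bovine endometrial cells given estradiol (E2), progesterone (P4) and interferon tau (IFNT). The set was defined by gene name and holds 10 genes of the 17162 in the table of expression values. The receptors are TLR2, TLR3, TLR4, TLR5 and TLR6. Their partners are CD14, LY96, UNC93B1, MYD88 and TICAM1. All 10 were present in the table.

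The cells were labelled as wild-type primary epithelial cells of the endometrium, grown from uteri of Holstein cows and passaged before use. CON cells were untreated. GA cells were given 1 nM E2 and 100 nM P4 for 12 h. GB cells were given the same hormones for 12 h, followed by 100 ng/mL IFNT for a further 12 h. Each group had 3 libraries. Whether the replicates came from separate animals is not stated in the sources used here, so the p-values measure the spread between these cultures, which may be technical. The collection times of CON and GA cells are not given separately, and a difference in culture time cannot be told apart from the effect of IFNT in the comparisons with GB.

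TLRs are membrane receptors that bind conserved parts of microbes and, in some cases, molecules released by damaged tissue. TLR2, TLR4, TLR5 and TLR6 sit mainly at the cell surface, where TLR2 pairs with TLR6 for lipopeptides, TLR4 works with LY96 (MD-2) and CD14 for lipopolysaccharide, and TLR5 binds flagellin. TLR3 binds double-stranded RNA in endosomes and reaches them with the chaperone UNC93B1. MYD88 is the adaptor of nearly all TLRs other than TLR3 and leads to NF-κB, while TICAM1 (TRIF) serves TLR3 and internalised TLR4 and leads to type I interferon genes. In the uterus these receptors are known for sensing bacteria after calving, in epithelial as well as stromal cells.

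Expression is given in the FPKM computed by the authors, a measure scaled for library size and gene length, so that levels of different genes can be compared. They are given to 2 decimals and without read counts, so the number of reads behind a low value is not known. FPKM summed to between 1395622 and 1442723 per library. Differences were tested on log2(FPKM + 0.5) with limma over the 12578 genes with a mean of at least 0.5 FPKM, and the added 0.5 makes the log2FC of weakly expressed genes smaller than the ratio of their FPKM. A gene was called when its |log2FC| was above 1 and its Benjamini-Hochberg adjusted p was under 0.05. Of the 10 genes 9 were tested, and TLR5 fell below the filter. As a check of the labels, the interferon-stimulated gene MX2 was at 0.05 to 0.14 FPKM in the 6 CON and GA libraries and at 752.98 to 761.62 FPKM in GB. GREB1, an estrogen-responsive gene, was at 0.09 to 0.38 FPKM in CON and at 2.03 to 2.51 FPKM in the 6 hormone-treated libraries.

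Markers of epithelium went against the label of the cells, which the study had checked by immunofluorescence for cytokeratin, the protein class of the KRT genes. All 7 epithelial markers in the table (KRT7, KRT8, KRT18, KRT19, CDH1, CLDN4 and ESRP1) had a mean under 0.5 FPKM, and their sum was at most 1.90 FPKM in any library. The 8 markers of stromal fibroblasts, VIM, COL1A1, COL1A2, COL3A1, DCN, LUM, PDGFRA and PDGFRB, summed to 16278 to 16862 FPKM in CON, 16495 to 16819 FPKM in GA and 14753 to 14852 FPKM in GB. In GB vs. GA 5 of the 8 were lower and 1 higher with an adjusted p under 0.05 (limma), against 19.2% and 9.87% of all tested genes. Limma called 0 of the 8, against 3.64% of all tested genes. VIM, which made up most of the sum, was lower (log2FC −0.17), while PDGFRA was higher (log2FC 0.33). The part of these changes in those of the receptors was not tested. Endothelial markers summed to 1.68 to 2.45 FPKM in CON, 1.57 to 1.79 FPKM in GA and 2.27 to 3.44 FPKM in GB. Of the 5, CDH5 alone was tested, and it was at 0.85, 0.99 and 1.19 FPKM in GA and at 2.52, 1.55 and 1.75 FPKM in GB (log2FC 0.68, adjusted p = 0.0395, limma). KDR was at 0, 0.11 and 0 FPKM in GA and at 0.42, 0.25 and 0.60 FPKM in GB. CDH5 and KDR were thus higher in GB than in GA, as were TLR3 and TLR4, while PECAM1, VWF and TEK overlapped between GA and GB. In GB vs. CON the libraries of CDH5 overlapped (log2FC 0.34, adjusted p = 0.253, limma). Over 19 alternative analyses 0 to 2 endothelial markers were higher in GB than in GA with an adjusted p under 0.05. In the main analysis 9.87% of all tested genes were. The part of endothelial cells in the results of TLR3 and TLR4 was not tested. The 3 lymphoid markers measured summed to at most 0.85 FPKM, and the 10 myeloid markers to 10.6 to 24.1 FPKM, most of it from FCER1G (up to 10.92 FPKM), CD163 (up to 9.42 FPKM) and CD68 (up to 4.43 FPKM). ITGAM, the integrin chain of CD11b, was at 0 in 7 of 9 libraries. The cells are therefore called BEND, the study's name for them, without a cell type.

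**Figure D1:**
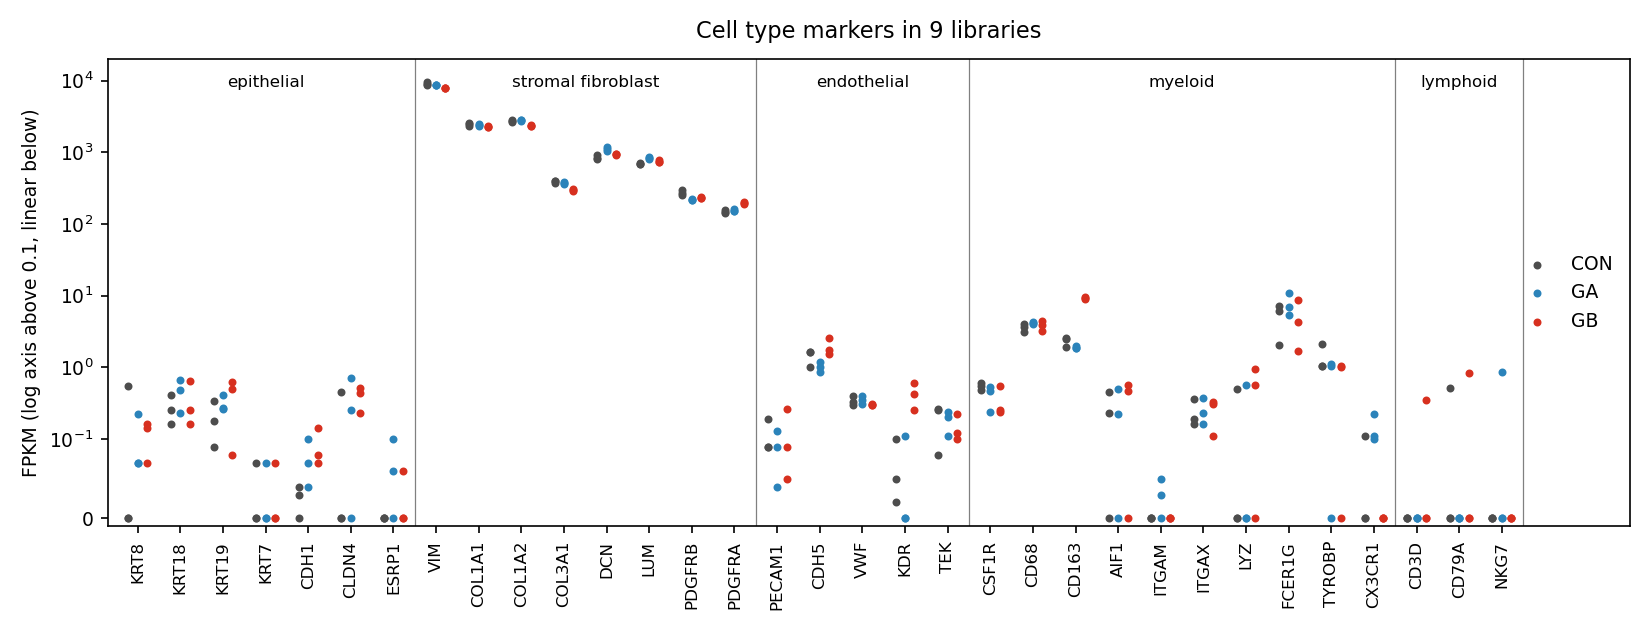
FPKM of markers of 5 cell classes (x axis) in each of the 9 libraries on an axis that is logarithmic above 0.1, with 1 point per library coloured by group. The stromal fibroblast markers lie above 100 FPKM in every library, while the 7 epithelial markers lie under 1 FPKM, and among the myeloid markers CD163 is higher in GB.

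Each partner was above each receptor in all 3 groups, and the order of the partners was the same in each. In CON cells LY96 was highest at 97.9 ± 20.3 FPKM (SD, n = 3), followed by MYD88 at 41.6 ± 0.993, UNC93B1 at 24.4 ± 2.68, CD14 at 20.2 ± 0.916 and TICAM1 at 16.8 ± 0.957. Each of these stood apart from the next, since their libraries did not overlap. The receptors came after them, with TLR6 at 3.13 ± 0.524 FPKM, TLR3 at 3.02 ± 0.140 and TLR4 at 2.32 ± 0.671. The libraries of TLR6 overlapped those of TLR3, and those of TLR3 overlapped those of TLR4. TLR2 was lower at 0.387 ± 0.137 FPKM. In GB cells the order of the receptors changed to TLR3, TLR4, TLR6 and TLR2, with no overlap between neighbours, and CD14 and TICAM1 overlapped. Over the 9 libraries the mean of LY96 exceeded that of 88.2% of the genes in the table, while the mean of TLR4 exceeded that of 38.9% and the mean of TLR2 that of 27.9%.

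**Figure D2:**
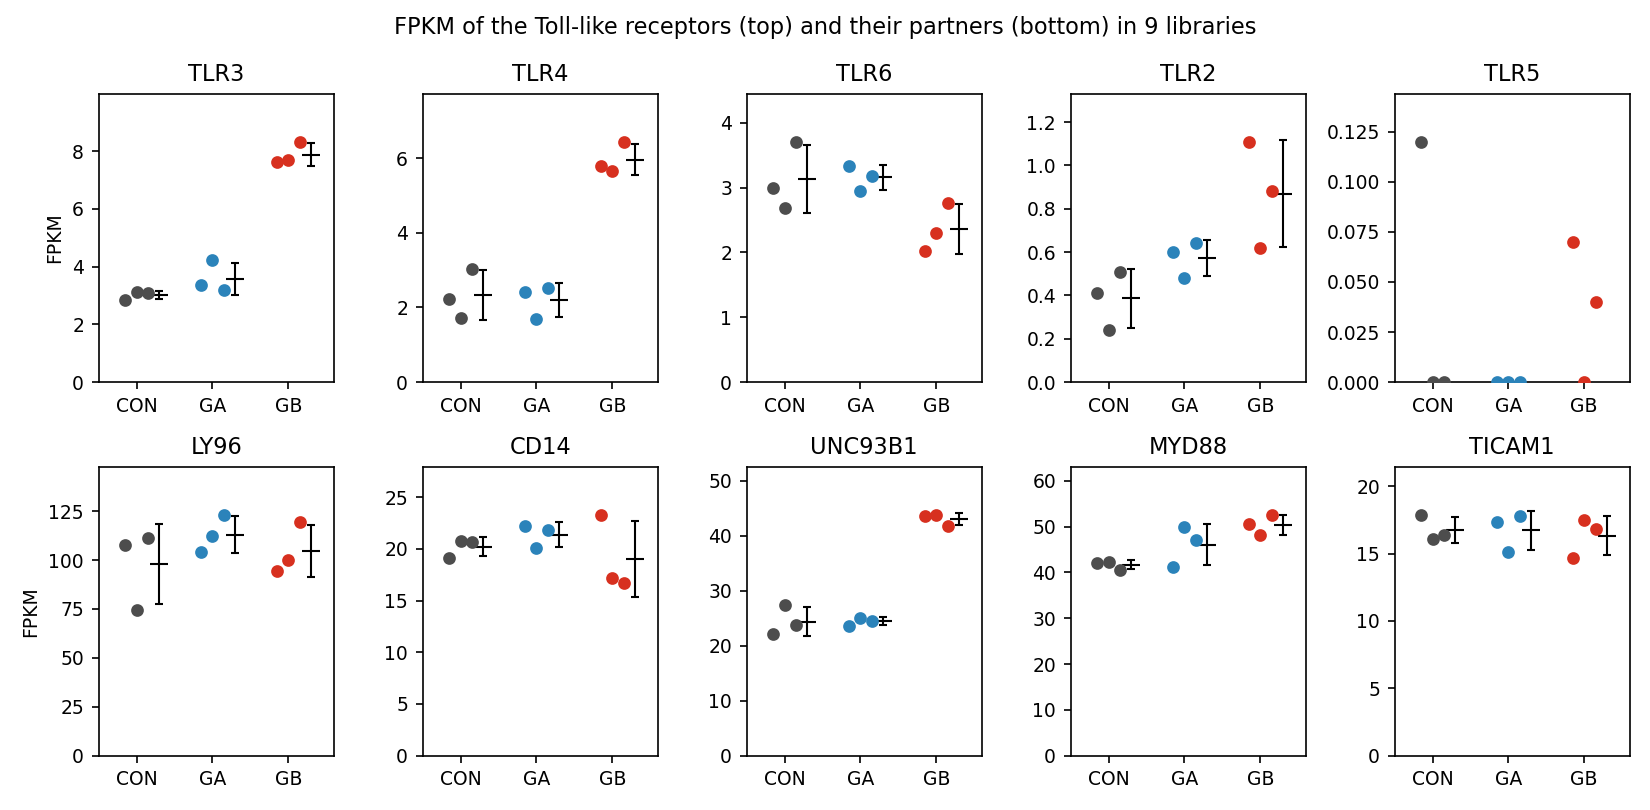
FPKM of the 5 receptors (top) and their 5 partners (bottom) on linear axes that start at 0, with 1 point per library and, beside them, the mean and SD of the 3 libraries of each group (not drawn for TLR5, which is listed at 0 in 6 libraries). TLR3, TLR4 and UNC93B1 in GB lie above all CON and GA libraries, and TICAM1 and LY96 overlap between all groups.

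The addition of IFNT to hormone-treated cells (GB vs. GA) was followed by higher TLR3 and TLR4 and by a smaller rise of UNC93B1, while MYD88, TICAM1, CD14 and LY96 did not pass the test. Of the 9 tested genes 2 (22.2%), TLR3 and TLR4, were called higher and 0 were called lower by limma, against 3.64% of all tested genes called in either direction, 2.66% called higher and 0.978% called lower. Without the fold threshold 3 of the 9 had an adjusted p under 0.05, all of them higher in GB, against 29.0% of all tested genes in either direction and 9.87% higher, and 4 of the 9 had an unadjusted p under 0.05, against 40.0%. In GB vs. CON the same 2 genes were called, against 4.01% of all tested genes, of which 2.94% were called higher and 1.07% lower. An adjusted p under 0.05 was reached by 4 of the 9, all higher in GB, against 33.5% of all tested genes, with 16.2% higher and 17.3% lower in GB, and an unadjusted p under 0.05 by 6 of the 9, against 43.8%. Among these 6 is TLR2, which passed the filter only through its GB values and adds nothing to the count. The GB libraries are shared by these comparisons, which are therefore not independent. In GA vs. CON limma called 0 of the 9, and 0 had an unadjusted p under 0.05, against 19.3% of all tested genes, while 0.0716% of all tested genes were called (0.0318% higher and 0.0398% lower) and 0.453% with an adjusted p under 0.05 at any fold, 0.246% higher and 0.207% lower.

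**Figure D3:**
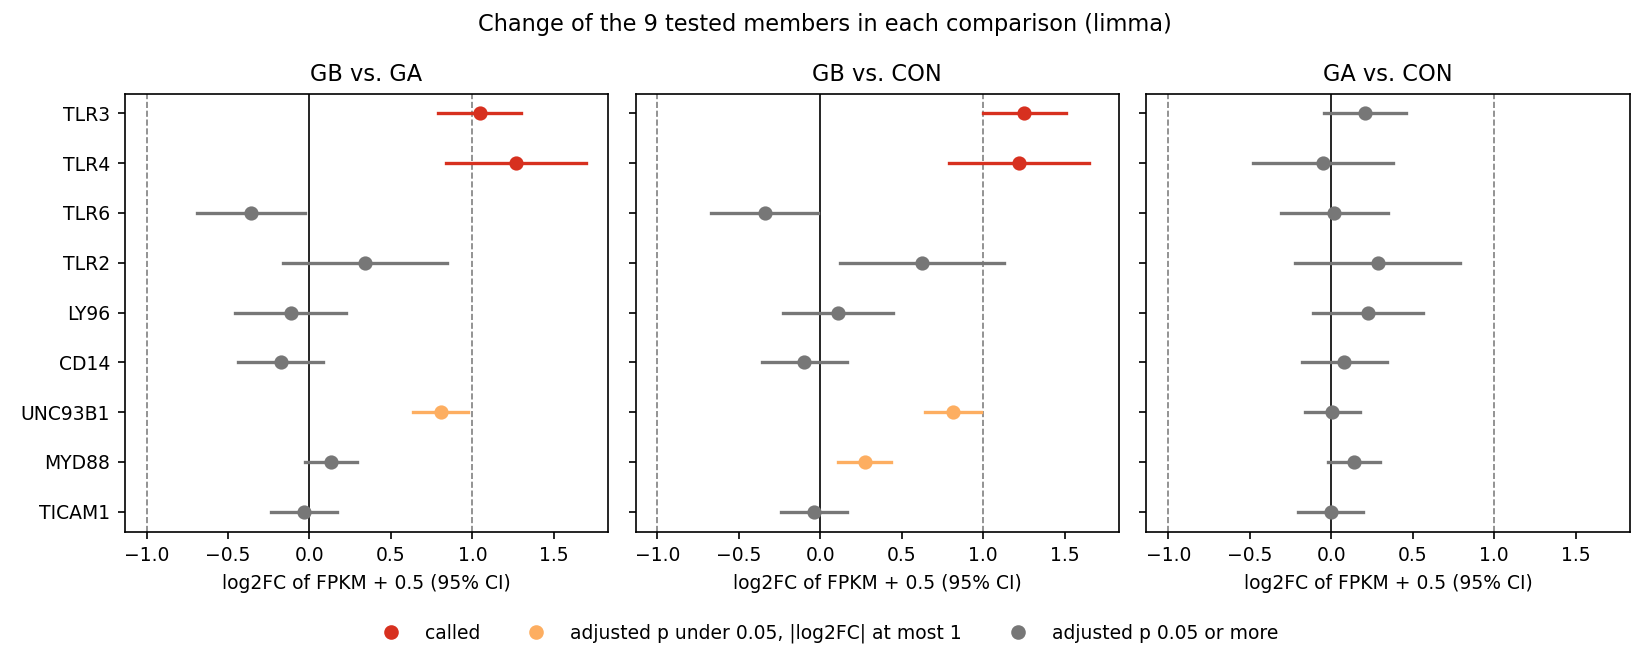
Log2FC of FPKM + 0.5 (x axis) of the 9 tested genes in each comparison with its 95% confidence interval from limma, where dashed lines mark the fold threshold of 1. TLR3 and TLR4 lie above 1 in both comparisons with GB, UNC93B1 lies between 0 and 1, and in GA vs. CON every interval includes 0.

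TLR4 was at 2.22, 1.71 and 3.04 FPKM in the CON libraries, at 2.42, 1.68 and 2.52 FPKM in GA and at 5.79, 5.65 and 6.44 FPKM in GB. Every GB library was above every CON and GA library, and CON and GA overlapped. The mean FPKM in GB was 2.70 times that in GA, and the log2FC was 1.27 (SE 0.19, 95% CI 0.84 to 1.70, adjusted p = 0.0011, limma). This change exceeded that of 97.7% of the tested genes. In GB vs. CON the log2FC was 1.22 (SE 0.19, adjusted p = 0.00122, limma), a ratio of 2.57. In GA vs. CON it was −0.049 (95% CI −0.48 to 0.38). Both calls with GB were kept in each of the 19 alternative analyses, with log2FC of 1.12 to 1.41 and 1.06 to 1.40.

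The proteins that make TLR4 responsive to lipopolysaccharide did not pass the test in any comparison. LY96, which binds the lipid and holds it to TLR4, was at 107.82, 74.63 and 111.37 FPKM in CON, at 104.12, 112.05 and 122.95 FPKM in GA and at 94.16, 100.17 and 119.37 FPKM in GB. The groups overlapped, and the log2FC in GB vs. GA was −0.12 with a 95% CI of −0.46 to 0.22. CD14, which passes lipopolysaccharide to LY96, was at 19.14, 20.77 and 20.68 FPKM in CON, at 22.24, 20.05 and 21.87 FPKM in GA and at 23.27, 17.18 and 16.69 FPKM in GB. GB1 was the highest of all 9 and the other two were the lowest. The log2FC of CD14 in GB vs. GA was −0.18 (95% CI −0.44 to 0.084, adjusted p = 0.291, limma). Without GB1 it was −0.33 (adjusted p = 0.0152, limma), and in GB vs. CON it was then −0.25 (adjusted p = 0.0386, limma).

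Within each library LY96 was 36.6 to 48.6 times as abundant as TLR4 in CON, 43.0 to 66.7 times in GA and 16.3 to 18.5 times in GB. CD14 exceeded TLR4 6.80 to 12.1 times in CON libraries, 8.68 to 11.9 times in GA libraries and 2.59 to 4.02 times in GB libraries. Both ratios were lower in every GB library than in any other, and both partners remained above TLR4 in FPKM throughout. These ratios were chosen after the values were seen and were not tested. An exact permutation test of such a ratio, 3 against 3, could not give a p below 0.1.

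TLR3 was at 2.86, 3.12 and 3.08 FPKM in CON, at 3.35, 4.22 and 3.19 FPKM in GA and at 7.61, 7.71 and 8.33 FPKM in GB. The GB libraries were again above all others. The means were 3.59 ± 0.554 FPKM in GA and 7.88 ± 0.390 FPKM in GB, with a log2FC of 1.04 (SE 0.11, adjusted p = 0.000145, limma), more than that of 97.1% of the tested genes. In GB vs. CON the log2FC was 1.25 (SE 0.11, adjusted p = 3.67e-05, limma) and the ratio 2.61. The call in GB vs. GA lies near the fold threshold. It was lost without GA3, where the log2FC was 0.97, and with a pseudocount of 1, where it was 0.96, although the adjusted p stayed between 0.000106 and 0.00116 (limma) over all 19 alternatives. The call in GB vs. CON was kept in all 19.

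UNC93B1, which carries TLR3 and the other nucleic acid receptors to endosomes, was at 22.07, 27.32 and 23.73 FPKM in CON, at 23.65, 25.12 and 24.46 FPKM in GA and at 43.54, 43.74 and 41.84 FPKM in GB. CON and GA overlapped, and GB lay clear of both. The log2FC was 0.81 in GB vs. GA (SE 0.075, adjusted p = 5.42e-05, limma) and 0.81 in GB vs. CON (SE 0.075, adjusted p = 4.5e-05, limma). The rise passed the test in all 19 alternatives without reaching the fold threshold in any, with log2FC of 0.78 to 0.88 and 0.75 to 0.90. In GA vs. CON the log2FC was 0.0072 (95% CI −0.16 to 0.18).

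Of the 2 adaptors, TICAM1 passed the test in no comparison and MYD88 in GB vs. CON. TICAM1 was at 17.85, 16.06 and 16.37 FPKM in CON, at 17.35, 15.08 and 17.76 FPKM in GA and at 14.68, 17.46 and 16.83 FPKM in GB. The 3 groups overlapped, and the log2FC was −0.035 in GB vs. GA (95% CI −0.24 to 0.17) and −0.039 in GB vs. CON (95% CI −0.24 to 0.16). TICAM1 exceeded TLR3 5.15 to 6.24 times in CON libraries, 3.57 to 5.57 times in GA libraries and 1.93 to 2.26 times in GB libraries, a ratio likewise chosen after the values were seen and not tested.

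MYD88 was at 42.08, 42.30 and 40.48 FPKM in CON, at 41.23, 49.91 and 47.09 FPKM in GA and at 50.55, 48.07 and 52.49 FPKM in GB. All GB libraries were above CON, and GA overlapped both. The mean of MYD88 in GB was 1.21 times that in CON, and the log2FC was 0.27 (SE 0.071, adjusted p = 0.0172, limma). The adjusted p rose to 0.0518 without CON3 and to 0.0607 without GB3 (limma). In GB vs. GA the log2FC was 0.13 (95% CI −0.030 to 0.29, adjusted p = 0.207, limma).

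**Figure D4:**
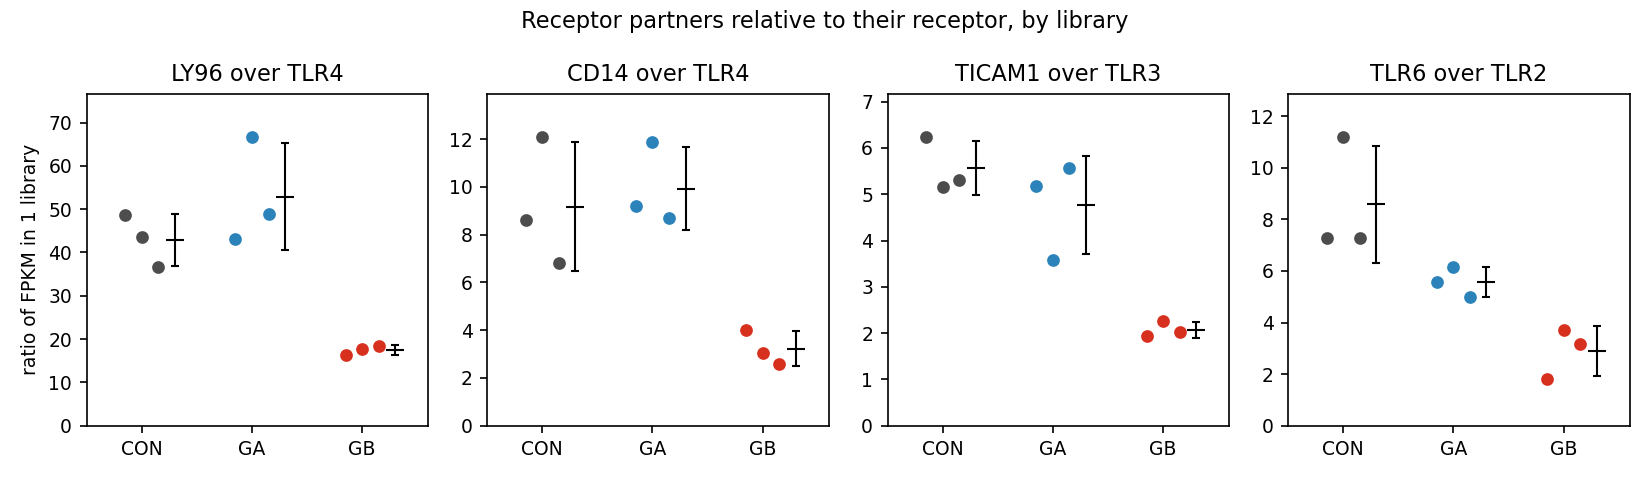
Ratio of FPKM within each library (y axis, from 0), with 1 point per library and the mean and SD of each group. In 3 panels a partner is divided by its receptor, and in the last the receptor TLR6 by the receptor TLR2. LY96 over TLR4, CD14 over TLR4 and TICAM1 over TLR3 are lower in all 3 GB libraries than in any CON or GA library. TLR6 over TLR2 is 1.82 to 3.71 in GB, lower as well. TLR2 was tested only because of its GB values, so this last ratio adds nothing.

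TLR2 and TLR6, the partners in lipopeptide sensing, gave values in opposite directions that did not pass the test. TLR2 was at 0.41, 0.24 and 0.51 FPKM in CON, at 0.60, 0.48 and 0.64 FPKM in GA and at 1.11, 0.62 and 0.88 FPKM in GB. The GB libraries were above CON, and GB2 fell within the range of GA. TLR2 passed the filter on the mean only through its GB values, so a higher GB was a condition of its being tested. The log2FC was 0.34 in GB vs. GA (95% CI −0.17 to 0.84) and 0.62 in GB vs. CON (95% CI 0.12 to 1.13, adjusted p = 0.0586, limma). The latter adjusted p was under 0.05 in 4 of 18 alternatives and reached 0.18 without GB1. At these FPKM the pseudocount weighs on the fold change, and with a pseudocount of 0.1 the log2FC in GB vs. CON was 1.00 (adjusted p = 0.0634, limma).

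TLR6 was at 2.99, 2.69 and 3.71 FPKM in CON, at 3.34, 2.95 and 3.18 FPKM in GA and at 2.02, 2.30 and 2.77 FPKM in GB. The GB libraries were below all GA libraries, and GB3 was above the lowest of CON. The log2FC was −0.36 in GB vs. GA (SE 0.15, adjusted p = 0.0964, limma) and −0.34 in GB vs. CON (SE 0.15, adjusted p = 0.103, limma). It was below 0 in each of the 19 alternatives of either comparison, with the adjusted p never under 0.0655. TLR6 exceeded TLR2 7.27 to 11.2 times in CON libraries, 4.97 to 6.15 times in GA libraries and 1.82 to 3.71 times in GB libraries. This ratio too was chosen after the values were seen and was not tested. It rests on TLR2 at 0.24 to 1.11 FPKM, a gene tested only because of its GB values, and adds nothing to the result. TLR6 shares long stretches of sequence with TLR1 and TLR10, so its value depends on how shared reads were assigned. TLR1 was not found by that name among the 17162 genes, and TLR10, the neighbour of TLR6 in the RefSeq annotation of ARS-UCD2.0, was at most 0.10 FPKM.

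TLR5 was listed at 0.12, 0 and 0 FPKM in CON, at 0 in the 3 GA libraries and at 0.07, 0 and 0.04 FPKM in GB. No fold change is given for it. TLR7, TLR8 and TLR9, the endosomal receptors for single-stranded RNA and CpG DNA, were similarly low, at most 0.16, 0.06 and 0.22 FPKM. All 4 further receptors in the table were below the filter. TLR3 was thus the 1 endosomal receptor tested among the clients of UNC93B1.

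Libraries that do not overlap between groups were common in this series. In GB vs. GA, TLR3, TLR4 and UNC93B1 lay wholly above GA and TLR6 wholly below, 4 of the 9 tested genes, against 15.7% of all tested genes wholly above and 31.0% wholly below. In GB vs. CON 5 of the 9 lay wholly above, namely TLR2, TLR3, TLR4, MYD88 and UNC93B1, against 22.2% of all tested genes wholly above and 23.9% wholly below. TLR2 was tested only because of its GB values, so it adds nothing to this count. In GA vs. CON 1 of the 9, TLR3, lay wholly above, against 18.6% of all tested genes wholly above and 6.13% wholly below. This count is therefore not read as an effect of hormones. The highest CON library of TLR3 was at 3.12 FPKM and the lowest GA library at 3.19 FPKM. The log2FC of TLR3 in GA vs. CON was 0.21 (SE 0.11, adjusted p = 0.336, limma).

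CD14, LY96, TLR2 and TLR4 are abundant in monocytes and macrophages, and 1 myeloid marker moved with TLR4. The scavenger receptor CD163 was at 1.93, 2.49 and 2.55 FPKM in CON, at 1.84, 1.88 and 1.95 FPKM in GA and at 9.20, 9.08 and 9.42 FPKM in GB, a log2FC of 2.03 in GB vs. GA (SE 0.11). It was the only myeloid marker called, out of 4 tested, against 3.64% of all tested genes called in GB vs. GA. The 10 measured myeloid markers summed to 10.6 to 16.0 FPKM in CON, 13.5 to 18.7 FPKM in GA and 16.6 to 24.1 FPKM in GB. Without CD163 the sums were 8.68 to 13.4, 11.6 to 16.9 and 7.15 to 14.9 FPKM, which overlap. In the GB libraries CD68 was at 3.18, 4.43 and 3.83 FPKM, FCER1G at 8.73, 4.27 and 1.70 FPKM, LYZ at 0.93, 0.56 and 0 FPKM and CSF1R at 0.24, 0.55 and 0.25 FPKM, and all of these overlapped GA. ITGAM and CX3CR1 were at 0 in GB. The part of myeloid cells in the results of TLR2 and TLR4 was not tested. In such bulk libraries, fewer cells of a type and less RNA per cell cannot be told apart.

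Over the 9 libraries the genes with the pattern most like TLR3 were SEC24B (Pearson's r 0.989), PRMT5 (0.989) and BATF2 (0.988). Those most like TLR4 were ENTPD1 (0.984), MDM4 (0.976) and CXHXorf38 (0.973). These values describe 9 libraries in which the GB group carries most of the variation.

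The genes that act with the receptors were counted by role. The accessory and trafficking genes tested were HSP90B1, CNPY3, CD36, SLC15A4, AP3B1 and TMED7. Limma called 0 of these 6 in GB vs. GA and 2 had an unadjusted p under 0.05, against 3.64% and 40.0% of all tested genes. HSP90B1, the chaperone gp96 that folds TLRs, was lower in GB at 593 ± 11.7 FPKM than in GA at 734 ± 10.0 FPKM (log2FC −0.31, adjusted p = 0.00118, limma). TMED7, which carries TLR4 to the cell surface, was higher at 307 ± 39.1 FPKM in GB against 234 ± 14.5 FPKM in GA (log2FC 0.39, adjusted p = 0.00778, limma). The median log2FC of these 6 was 0.056, against −0.075 over all tested genes.

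Endosomal proteases cut TLR3 and its relatives into their active form. Of 5 tested, only CTSS (cathepsin S) was called, in both comparisons with GB, against 3.64% (GB vs. GA) and 4.01% (GB vs. CON) of all tested genes. It was at 39.32, 35.22 and 38.40 FPKM in GA and at 122.13, 123.87 and 131.10 FPKM in GB. The log2FC was 1.73 (SE 0.057, adjusted p = 1.92e-08, limma). CTSB was slightly lower in GB (log2FC −0.17, adjusted p = 0.0104, limma), while CTSK, CTSL and LGMN did not pass the test and the median of the 5 was −0.15. The call of CTSS was kept in all 19 alternatives. The number of proteases lower in GB vs. GA with an adjusted p under 0.05 varied from 0 to 1. In the main analysis 19.2% of all tested genes were lower at that threshold.

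Among the other adaptors 4 were tested, and limma called 0 of them in GB vs. GA, with 2 at an unadjusted p under 0.05, against 3.64% and 40.0% of all tested genes. TICAM2 (TRAM), the bridge from TLR4 to TICAM1, was at 13.2 ± 1.81 FPKM in GA and 17.8 ± 2.13 FPKM in GB (log2FC 0.42, SE 0.13, adjusted p = 0.034, limma). SARM1, an inhibitor of TICAM1, was lower in GB (log2FC −0.21, adjusted p = 0.0399, limma). TIRAP, the bridge to MYD88, had a log2FC of 0.13 in GB vs. GA (adjusted p = 0.417) and of 0.35 in GB vs. CON (adjusted p = 0.041, both limma). Over the 19 alternatives of GB vs. GA 0 to 1 of these adaptors were higher and 0 to 1 lower with an adjusted p under 0.05. In the main analysis 9.87% and 19.2% of all tested genes were.

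Among kinases and ubiquitin ligases below the adaptors limma called 0 of 21 in GB vs. GA, where 9 had an unadjusted p under 0.05, against 3.64% and 40.0% of all tested genes. An adjusted p under 0.05 was found for 4 higher genes, RIPK1, TBK1, PELI1 and TAB2, and for 2 lower genes, TRAF3 and CHUK, against 9.87% and 19.2% of all tested genes. RIPK1, a kinase recruited by TICAM1, had the largest log2FC of the list at 0.71 (SE 0.068), with 26.5 ± 1.69 FPKM in GA and 43.7 ± 1.05 FPKM in GB. TBK1, the kinase that activates IRF3, rose from 16.2 ± 0.390 to 20.2 ± 1.63 FPKM (log2FC 0.31, SE 0.070). The median log2FC of the list was −0.012. IRAK1, IRAK2, IRAK4 and TRAF6, which act directly below MYD88, had log2FC of −0.14, −0.012, 0.33 and −0.072 in GB vs. GA and none passed the test there. IRAK4 was higher in GB than in CON (log2FC 0.59, adjusted p = 0.00956, limma).

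Inhibitors of the pathway held 3 called genes of 14 in GB vs. GA, all higher, against 2.66% of all tested genes called higher. TRIM38, a ubiquitin ligase that limits TICAM1 and TRAF6 signalling, rose from 12.8 ± 0.815 FPKM in GA to 78.9 ± 3.30 FPKM in GB (log2FC 2.57, SE 0.073, adjusted p = 6.41e-09, limma). SOCS1, an inhibitor of JAK kinases that also limits TLR signalling, was at 3.98, 5.53 and 2.81 FPKM in GA and at 27.64, 24.66 and 25.64 FPKM in GB (log2FC 2.56, SE 0.19). ATF3, a repressor of cytokine genes, rose from 24.0 ± 4.93 to 56.0 ± 3.17 FPKM (log2FC 1.22, SE 0.13). These 3 were called in GB vs. CON too and in all 19 alternatives of both comparisons. TNFAIP3 (A20) was higher without being called (log2FC 0.53, adjusted p = 0.0207, limma), as were CYLD and TRAFD1. TNIP1 was lower (log2FC −0.19, adjusted p = 0.031, limma). With an adjusted p under 0.05, 6 of the 14 were higher and 1 lower in GB vs. GA, against 9.87% and 19.2% of all tested genes. Over the 19 alternatives 3 to 8 inhibitors were higher and 0 to 2 lower at that threshold. TOLLIP, SIGIRR and IRAK3 did not pass the test in GB vs. GA. In GB vs. CON TOLLIP was lower (log2FC −0.37, adjusted p = 0.014, limma) and IRAK3 higher (log2FC 0.31, adjusted p = 0.0365, limma). There 7 of the 14 were higher and 1 lower with an adjusted p under 0.05, against 16.2% and 17.3% of all tested genes. The median log2FC of the 14 was 0.22.

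Among 7 transcription factors of the pathway, IRF3 and IRF7 were called higher in both comparisons with GB, against 2.66% (GB vs. GA) and 2.94% (GB vs. CON) of all tested genes. IRF3, the factor that TICAM1 signalling activates, was at 65.7 ± 4.09 FPKM in GA and 159 ± 2.25 FPKM in GB (log2FC 1.27, SE 0.054, adjusted p = 1.4e-07, limma). IRF7 rose from 57.8 ± 4.02 to 350.0 ± 7.76 FPKM (log2FC 2.59, SE 0.086). NFKB1 and JUN were higher with log2FC of 0.34 and 0.35 (adjusted p = 0.00465 and 0.00457, limma). RELA, the main activating subunit of NF-κB, had a log2FC of −0.12 (adjusted p = 0.19, limma), and FOS and IRF5 did not pass the test.

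**Figure D5:**
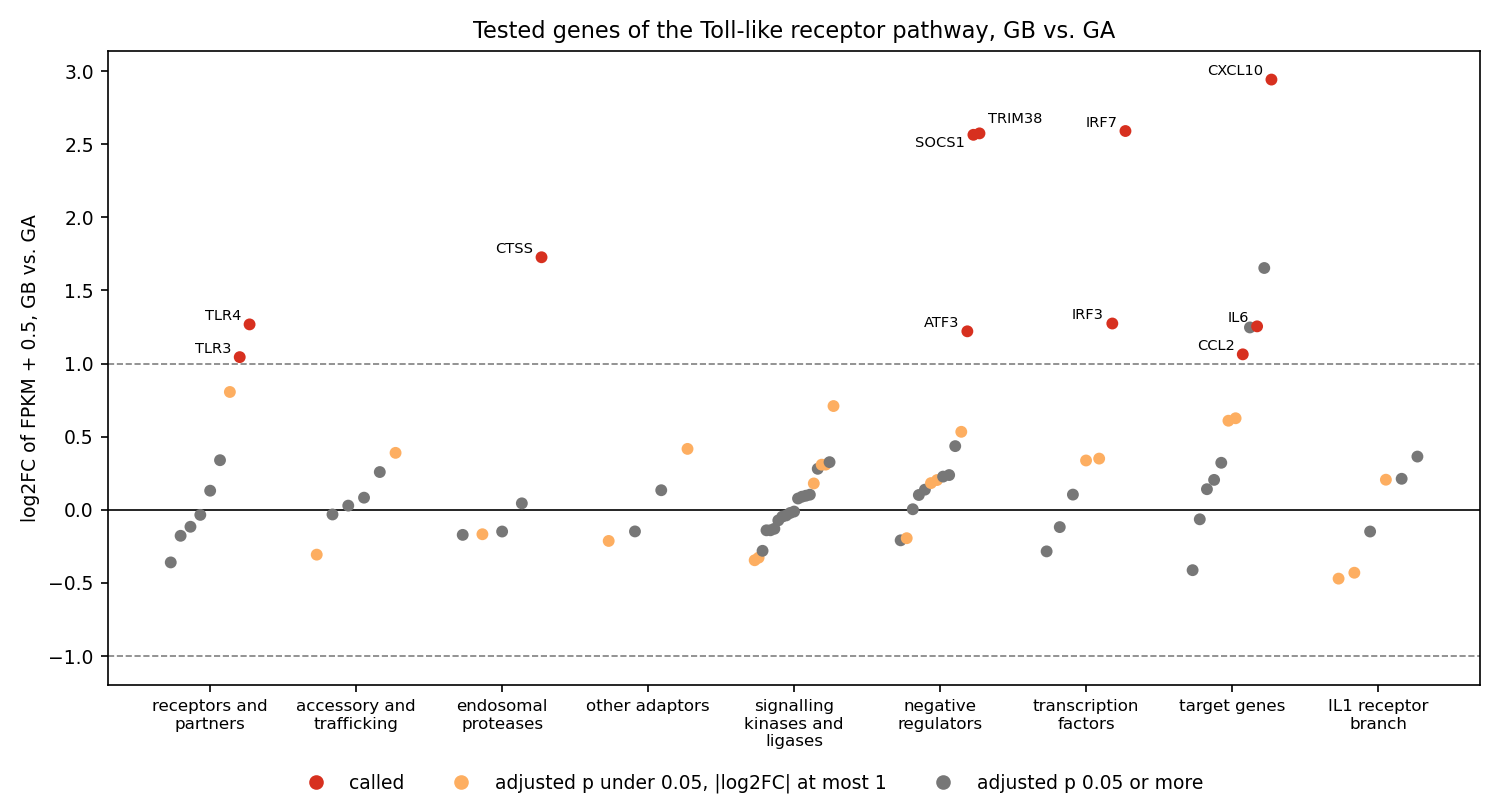
Log2FC of FPKM + 0.5 in GB vs. GA (y axis) of each tested gene of the receptor set and 8 lists of the pathway (x axis), with called genes in red and named. Most genes of the signalling kinases lie between −0.5 and 0.5, while CTSS, TRIM38, SOCS1, ATF3, IRF3, IRF7 and 5 target genes, 3 of them called, lie above 1.

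Genes that TLR signalling is known to induce were the least stable list. Of 12 tested, IL6, CXCL10 and CCL2 were called higher in GB vs. GA, against 2.66% of all tested genes, and the number called ranged from 0 to 3 over the 19 alternatives. CXCL10 was at 2.51, 1.29 and 4.96 FPKM in CON, at 0, 0 and 4.13 FPKM in GA and at 7.04, 5.65 and 10.83 FPKM in GB. Its call was lost without GA1, GA2, GB1 or GB3 (adjusted p = 0.0749, 0.0753, 0.0544 and 0.0688, limma). In GB vs. CON CXCL10 was not called (log2FC 1.39, adjusted p = 0.212, limma). IL6 was at 0.77, 0 and 0.52 FPKM in GA and at 1.47, 1.45 and 1.79 FPKM in GB, and its call was lost in 9 of 19 alternatives: both other pseudocounts, the filter at 1 FPKM, the replicate block (adjusted p = 0.0607) and without GA2, GA3, GB1, GB2 or GB3 (adjusted p of 0.0593 to 0.0977, limma). IL6 passed the filter only through GB, so a higher GB was a condition of its being tested and its calls add nothing to the count. CCL2 was at 16.29, 15.89 and 8.70 FPKM in GA and at 19.96, 44.34 and 24.67 FPKM in GB, and its call was lost in 6 alternatives: no filter (adjusted p = 0.0579), no variance trend (0.0538), the fit of 2 groups (0.0526) and without GA3, GB2 or GB3 (0.114, 0.096 and 0.0576, limma). In GB vs. CON the called genes were PTX3, CCL2 and, with the same limit, IL6, against 2.94% of all tested genes called higher, and the calls of PTX3 and CCL2 were kept in all 19 alternatives.

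ICAM1 and PTX3 were higher after hormones alone as well, but not in every alternative. In GA vs. CON 2 of 12 target genes were higher with an adjusted p under 0.05, against 0.246% of all tested genes. Over the 19 alternatives the number was 0 to 2. ICAM1, an adhesion molecule, was at 96.6 ± 3.39 FPKM in CON, 125 ± 3.88 FPKM in GA and 191 ± 8.51 FPKM in GB, with a log2FC of 0.37 in GA vs. CON (adjusted p = 0.0199, limma) and 0.61 in GB vs. GA (adjusted p = 1.69e-05, limma). PTX3, a secreted pattern recognition protein, was at 0.30, 0.20 and 0.28 FPKM in CON, at 1.18, 1.02 and 1.02 FPKM in GA and at 1.97, 1.68 and 2.15 FPKM in GB. Its call in GA vs. CON (log2FC 1.05, adjusted p = 0.0392, limma) was lost in 15 of the 19 alternatives. Among them were all 9 fits with 1 library left out (adjusted p of 0.0526 to 0.141, limma). CXCL8, PTGS2 and SOD2, among the most common readouts of NF-κB activity, had log2FC of 0.20, 0.14 and −0.065 in GB vs. GA and did not pass the test. TNF, IL1B, CCL20 and IFNB1 were not found by these names among the 17162 genes, so no value is given for them.

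The comparison of GB with CON gave similar counts for these lists. Limma called CTSS of 5 proteases, TRIM38, SOCS1 and ATF3 of 14 inhibitors, and IRF3 and IRF7 of 7 transcription factors. All were higher, against 2.94% of all tested genes called higher. It called 0 of 6 accessory and trafficking genes, 0 of 4 other adaptors and 0 of 21 kinases and ligases. The share of all tested genes was 4.01%. An unadjusted p under 0.05 was found for 2 of the 6, 4 of the 4 and 11 of the 21, against 43.8% of all tested genes. Among the 21, 7 were higher and 0 lower with an adjusted p under 0.05, against 16.2% and 17.3% of all tested genes. In GA vs. CON PTX3 was the only gene called in the lists of the pathway, against 0.0716% of all tested genes.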

How the data were processed

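The study sequenced mRNA of BEND in 9 libraries, 3 each of CON, GA and GB. The authors trimmed reads with fastp 0.21.0, removed rRNA with Bowtie2 2.33, aligned to ARS-UCD1.2 with HISAT2 2.2.1 and counted reads per gene with RSEM 1.3.3. The deposited table holds FPKM for each gene and library. The annotation release and strand setting used for counting were not given in the sources used. The authors' own test, DESeq2 1.34.0, used counts, which were not used here.

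Values were used as log2(FPKM + 0.5). Genes with a mean of at least 0.5 FPKM were fitted with limma 3.58.1 (R 4.3.3), with 1 mean per group and a variance trend, and p-values were adjusted over all 12578 genes. Thresholds followed the study. Figures were drawn with matplotlib 3.10.9. The procedure was tested on simulated data. The members, lists and tests were chosen with earlier results of these data known. The genes named are the members, the list genes called in a comparison, further list members beside a count, and the 3 genes most like each called member. Genes named beyond these, and the ratios, were chosen after values were seen. Alternatives were 2 other pseudocounts, 2 other filters, 3 other scalings, no variance trend, fits of 2 groups, a replicate block and each library left out. All 10 members were matched to RefSeq genes by symbol, and no sequence is printed.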

Additional observations from a re-analysis of the deposited data

How the results depend on the processing

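Over 19 alternatives limma called 2 receptor genes in GB vs. CON and 0 in GA vs. CON each time. In GB vs. GA the number was 2 except with a pseudocount of 1 (1 gene, TLR4) and without GA3 (1 to 2 genes over single libraries left out), since the log2FC of TLR3 fell to 0.96 and 0.97. TLR2 could not be tested with the filter at a mean of 1 FPKM. Same-numbered libraries did not deviate together (r of −0.031 to 0.077), so the numbers were not taken as pairs, and with the replicate block 2 genes were called in GB vs. GA, 2 in GB vs. CON and 0 in GA vs. CON.

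Changes near 0 turned sign without passing the test. In GA vs. CON, TLR6 was at −0.0097 with TPM scaling, −0.033 with median-of-ratios factors and −0.041 after quantile normalization, and UNC93B1 at −0.026, −0.052 and −0.060. TICAM1 in GB vs. GA was at 0.038 with median-of-ratios factors. With single libraries left out, the log2FC in GA vs. CON ranged from −0.069 to 0.13 for TLR6, −0.060 to 0.091 for UNC93B1, −0.048 to 0.066 for TICAM1 and −0.21 to 0.13 for TLR4. Those of TICAM1 ranged from −0.11 to 0.038 in GB vs. GA and −0.088 to 0.033 in GB vs. CON, and those of LY96 in GB vs. CON from −0.075 to 0.21. The reads behind each value are not known, and the SE was largest for TLR2 among the 9 tested genes.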

Other observations

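Receptors of the interleukin-1 family share MYD88 with the TLRs. Of 6 tested genes of this branch, limma called 0 in GB vs. GA and 4 had an unadjusted p under 0.05. The shares of all tested genes were 3.64% and 40.0%. The 6 include IL1RN, which encodes a receptor antagonist and not a receptor. IL1RL1 (ST2), the receptor of interleukin-33, was the most abundant at 344.03, 335.65 and 389.93 FPKM in GA and 257.02, 251.34 and 261.56 FPKM in GB (log2FC −0.47, adjusted p = 0.000661, limma). IL1R1 was lower as well, from 47.3 ± 1.97 to 35.0 ± 1.72 FPKM (log2FC −0.43, adjusted p = 0.000652, limma). IL18R1 was higher (log2FC 0.21, adjusted p = 0.0384, limma), while IL1RAP, IL18RAP and IL1RN did not pass the test. Over the 19 alternatives the number of these genes higher with an adjusted p under 0.05 varied from 0 to 1. In the main analysis of GB vs. GA 9.87% of all tested genes were. In GB vs. CON the log2FC were −0.56 for IL1RL1, −0.32 for IL1R1 and 0.25 for IL18R1.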
